A study of Homo sapiens and Mus musculus with 20 samples.

Results

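The HOX genes of the human genome lie in 4 clusters, HOXA, HOXB, HOXC and HOXD, and their chromatin accessibility was examined here in SW480 cells exposed to short-chain fatty acids. The 39 protein-coding HOX genes were taken from the GENCODE annotation of GRCh38, out of 20046 protein-coding genes, and every accessible region from 20 kb before to 20 kb after each cluster was followed. SW480 is an established epithelial cell line from a human colon adenocarcinoma. Accessibility was measured with Omni-ATAC-seq, in which a transposase inserts sequencing adapters into open chromatin, on 50000 viable cells per reaction. In the first experiment 3 libraries came from cells given 10 mM sodium propionate (NaPr) and 3 from cells given 0 mM NaPr. In the second, run on another date, 3 libraries came from cells given 1 mM sodium butyrate (NaBu) and 3 from cells given 0 mM NaBu. Exposure lasted 12 to 16 h in both. Each acid was therefore compared with its own untreated libraries, and because the doses differed the acids are set side by side and not compared. The labels do not say whether libraries of a group came from separate cultures, so the p-values measure the spread between these libraries only.

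HOX genes encode homeodomain transcription factors that tell cells where they lie along the body axis. Within a cluster the genes stand in the order in which they act from head to tail, and the numbers in their names follow that order, so genes with the same number in different clusters are paralogues. The clusters are classic targets of Polycomb complexes, which keep them silent, and of Trithorax proteins, which keep them active, and adult intestinal epithelium retains an expression pattern of HOX genes that marks its position in the gut. Propionate and butyrate are made by gut bacteria, and both are known to inhibit histone deacetylases.

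The values used were peak lists, that is, intervals where a peak caller found more tags than its background. Each region is an interval obtained by merging overlapping peaks of the 6 libraries of an experiment, and it was tested where at least 2 libraries had a peak in it. Its value in a library is a percentile rank, from 0 for no peak to 100 for the strongest peak, by the −log10 p of its strongest summit. A rank of 0 means that no peak was listed, not that no tag was present. Ranks were compared with limma across all tested regions of the genome, and a region was called higher or lower at a Benjamini-Hochberg adjusted p under 0.05. The lists held between 299022 and 299463 summits per library, and the pileup of the genome background, a guide to depth, ran from 0.936 to 2.35 tags in the NaPr experiment and from 2.11 to 3.03 in the NaBu experiment. In the NaPr experiment the shallowest libraries were untreated 1 at 0.936 and treated 1 at 0.938. Of 10 colon epithelium markers, 6 had a peak at the gene start in all untreated libraries of each experiment, EPCAM among them with a mean untreated rank of 97.8 and 97.2. Of 4 leukocyte markers 1 had a tested region at the start in each experiment, at an untreated mean of 87.9 and 91.6. CD14 had such a region, and PTPRC and CD3E had none in either experiment. Of 4 fibroblast markers 2 had one in each experiment. COL3A1 and DCN had none, while COL1A1 ranked 90.1 and 87.6 in untreated cells. Of 3 endothelium markers 1 had one in the NaPr experiment, at an untreated mean of 21.4, and 0 in the NaBu experiment.

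Sequences of 4 called regions are shown first, 80 bases of the plus strand of GRCh38 around the strongest summit with each CpG dinucleotide in capitals, since CpG content is one of the features by which HOX regions stood apart from the rest. They are a region between HOXC11 and HOXC10 that was higher after NaPr (chr12:53979872-53979951), a region in the HOXB4 coding exon that was lower after NaPr (chr17:48576904-48576983), a region in the HOXA11 intron that was lower after NaBu (chr7:27183605-27183684) and a region in the antisense RNA gene HOXB-AS1 that was higher after NaBu (chr17:48546848-48546927).
HOXC11 to HOXC10, higher after NaPr: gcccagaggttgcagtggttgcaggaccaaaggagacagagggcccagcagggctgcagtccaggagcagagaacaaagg
HOXB4 exon, lower after NaPr: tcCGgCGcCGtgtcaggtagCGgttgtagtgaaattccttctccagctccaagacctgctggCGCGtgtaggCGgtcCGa
HOXA11 intron, lower after NaBu: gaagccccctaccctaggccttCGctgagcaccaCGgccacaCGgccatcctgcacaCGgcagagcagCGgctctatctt
HOXB-AS1, higher after NaBu: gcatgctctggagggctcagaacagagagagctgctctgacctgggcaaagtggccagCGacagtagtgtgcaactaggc
CpG counts overlapped between the directions. Over such stretches of all 20 named regions they ran from 0 to 9 in regions that were higher and from 0 to 10 in regions that were lower.

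Promoter sequences are given for 3 genes whose starts were called lower after NaBu, as the 150 bases before the RefSeq start (GRCh38.p14), written 5′ to 3′ on the strand of the gene. HOXD11 (chr2:176107130-176107279, plus strand) was called lower in both experiments, and the capitals mark a match to the HOX-PBX motif, the joint site of a HOX protein and its cofactor PBX. For HOXD13 (chr2:176092571-176092720, plus strand) and HOXA11 (chr7:27185233-27185382, minus strand) the capitals mark CpG.
HOXD11: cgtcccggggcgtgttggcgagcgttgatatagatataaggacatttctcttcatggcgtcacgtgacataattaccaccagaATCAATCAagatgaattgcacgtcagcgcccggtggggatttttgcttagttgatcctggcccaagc
HOXD13: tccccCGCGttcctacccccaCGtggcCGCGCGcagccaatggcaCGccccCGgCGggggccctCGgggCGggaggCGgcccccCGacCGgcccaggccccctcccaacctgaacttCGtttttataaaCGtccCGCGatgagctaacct
HOXA11: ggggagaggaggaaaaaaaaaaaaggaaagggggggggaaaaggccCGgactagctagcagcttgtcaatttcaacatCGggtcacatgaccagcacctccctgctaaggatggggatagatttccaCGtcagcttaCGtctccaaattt
HOXD13 had 18 CpG in this stretch and HOXA11 had 4.

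The regions of the HOX clusters were 163 of the 129351 tested regions in the NaPr experiment and 173 of 127305 in the NaBu experiment. Before the requirement of a peak in 2 libraries there were 210 of 213541 and 196 of 156685. The spans searched were chr7:27072993-27220091 for HOXA, chr17:48508526-48748750 for HOXB, chr12:53918831-54076030 for HOXC and chr2:176072721-176210907 for HOXD, together 682.711 kb. They also held 31 long noncoding RNA genes, 8 miRNA genes and 5 other protein-coding genes. HOXA and HOXB are transcribed from the minus strand and HOXC and HOXD from the plus strand.

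In untreated cells the starts of HOX genes differed widely in accessibility. Taking the tested region nearest to each start within 500 bp, 31 of the 39 genes could be followed in the NaPr experiment and 28 in the NaBu experiment. Highest in the untreated NaPr libraries was HOXA13, the last gene of HOXA and a regulator of limb and hindgut development, with ranks of 99.3, 99.2 and 99.4. It was followed by HOXA4 at a mean of 93.2 ± 1.46, HOXD1 at 92.8 ± 1.57, HOXD11 at 92.4 ± 0.835, HOXD9 at 92.4 ± 0.393 and HOXD8 at 92.3 ± 0.949 (SD, n = 3). These 5 starts lay within their spread of each other. In the untreated NaBu libraries HOXA13, HOXA4 and HOXA7 were among the highest, with means of 93.0 ± 0.448, 92.9 ± 1.44 and 92.7 ± 0.728 (SD, n = 3), differences smaller than the spread between libraries. The lowest tested start was HOXA10 in the NaPr experiment, at 30.6 ± 28.9 with no peak in 1 of 3 libraries, and HOXC8 in the NaBu experiment, at 40.7 ± 0.799. No tested region lay within 500 bp of the canonical start of HOXA2, HOXB2, HOXB8, HOXC4, HOXC12, HOXD4, HOXD10 or HOXD12 in either experiment, nor of HOXB1, HOXC9 or HOXC11 in the NaBu experiment.

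**Figure D1:**
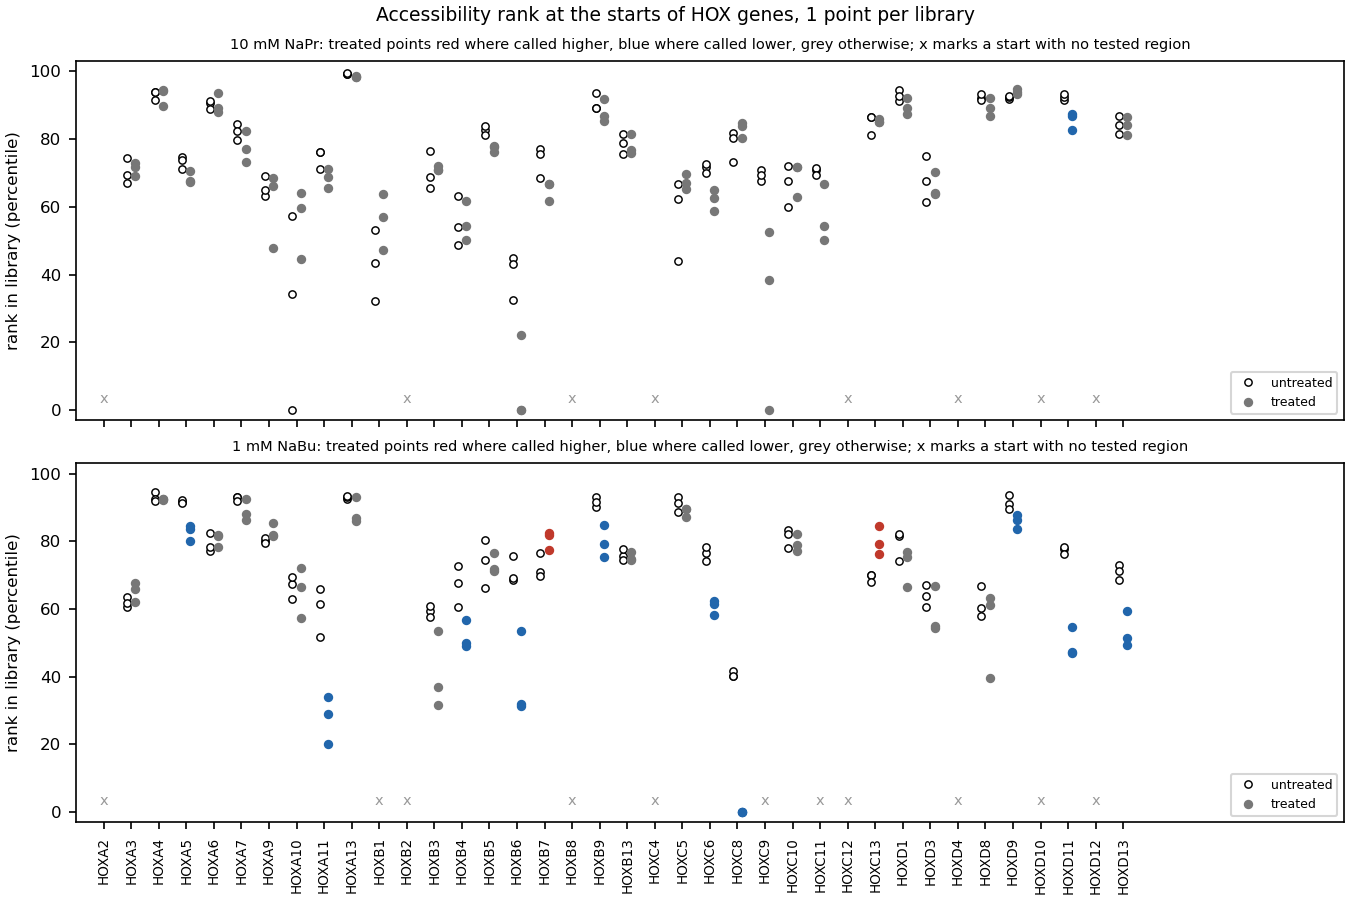
Percentile rank within the library of the region nearest to the start of each HOX gene shown, 10 mM NaPr above and 1 mM NaBu below, with 1 point per library, open for untreated and filled for treated. After NaBu 10 starts are blue (called lower) and 2 are red (called higher), after NaPr 1 is blue, and an x marks a start with no tested region.

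After NaBu more HOX regions were lower in rank than higher. Of the 173 HOX regions 59 were called lower and 9 higher, that is 34.1% lower where 17.3% of all tested regions were, and 5.20% higher where 19.6% of all tested regions were. The excess depended on the ranking. Ranked by fold enrichment 28 HOX regions (16.2%) were lower where 13.8% of all were, and among the 50000 strongest intervals of each library 17 (20.7%) were where 20.8% of all were. The median change over HOX regions was −7.73 rank units against 0.69 over all tested regions, and 126 of the 173 changes were negative. The ranks of treated and untreated libraries did not overlap in 80 regions (46.2%), about the share of all regions (47.2%). Of these 67 were lower (38.7%, where 22% of all regions were) and 13 higher (7.51%, where 25.2% were). A peak was present in every untreated and no treated library in 15 HOX regions, where 3.91% of all regions met this, and in every treated and no untreated library in 2, where 6.42% of all regions did.

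All 4 clusters showed this direction. In HOXA 19 of 61 regions (31.1%) were lower and 0 higher, with a median change of −4.77. In HOXB 19 of 52 (36.5%) were lower and 3 higher, with a median of −11.0. In HOXC 14 of 37 (37.8%) were lower and 3 higher, with a median of −13.2. In HOXD 7 of 23 (30.4%) were lower and 3 higher, with a median of −5.58. The share that was lower was thus above the genome's 17.3% in each cluster, and whether the clusters differed from each other was not tested.

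**Figure D2:**
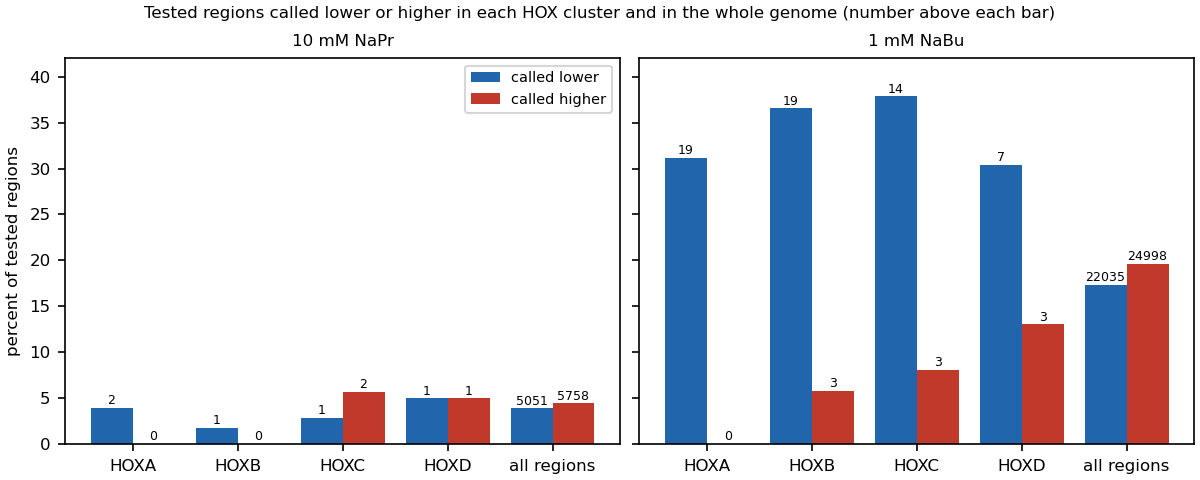
Percent of tested regions called lower (blue) or higher (red) in each HOX cluster and in the whole genome, with the number above each bar, for 10 mM NaPr on the left and 1 mM NaBu on the right. After NaBu 30.4% to 37.8% of the regions of a cluster were lower against 17.3% of all regions, and after NaPr 1.75% to 5% were, against 3.9%.

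Nearly all of the regions that were lower after NaBu lay between the first and the last gene of a cluster. The share of all tested HOX regions lying there was not computed, so the position of the lower regions was not compared with it. The stretches given next held 51 of the 61 tested regions in HOXA, 38 of 52 in HOXB, 30 of 37 in HOXC and 16 of 23 in HOXD. In HOXB all 19 fell within a stretch of 48.8 kb from HOXB4 to HOXB9 (chr17:48578106-48626954), where 35 of 38 tested regions had a negative change and 1 was called higher. In HOXA the 19 stretched over 102 kb (chr7:27083713-27185509), ending at HOXA11 and starting outside the cluster, where 1 of the 19 lay in the 20 kb added to it, with 37 negative changes among 51 tested regions. In HOXC the 14 stretched over 89.6 kb (chr12:53939456-54029074) from HOXC13 to HOXC6, and in HOXD the 7 over 73.2 kb (chr2:176092547-176165717) from HOXD13 to an exon of the antisense gene HAGLR. The stretches were read off after the calls were known and carry no test. In the next 100 kb on either side of the 4 spans, by contrast, 58 regions held 11 that were higher and 12 that were lower. The counts inside and outside were not tested against each other.

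**Figure D3:**
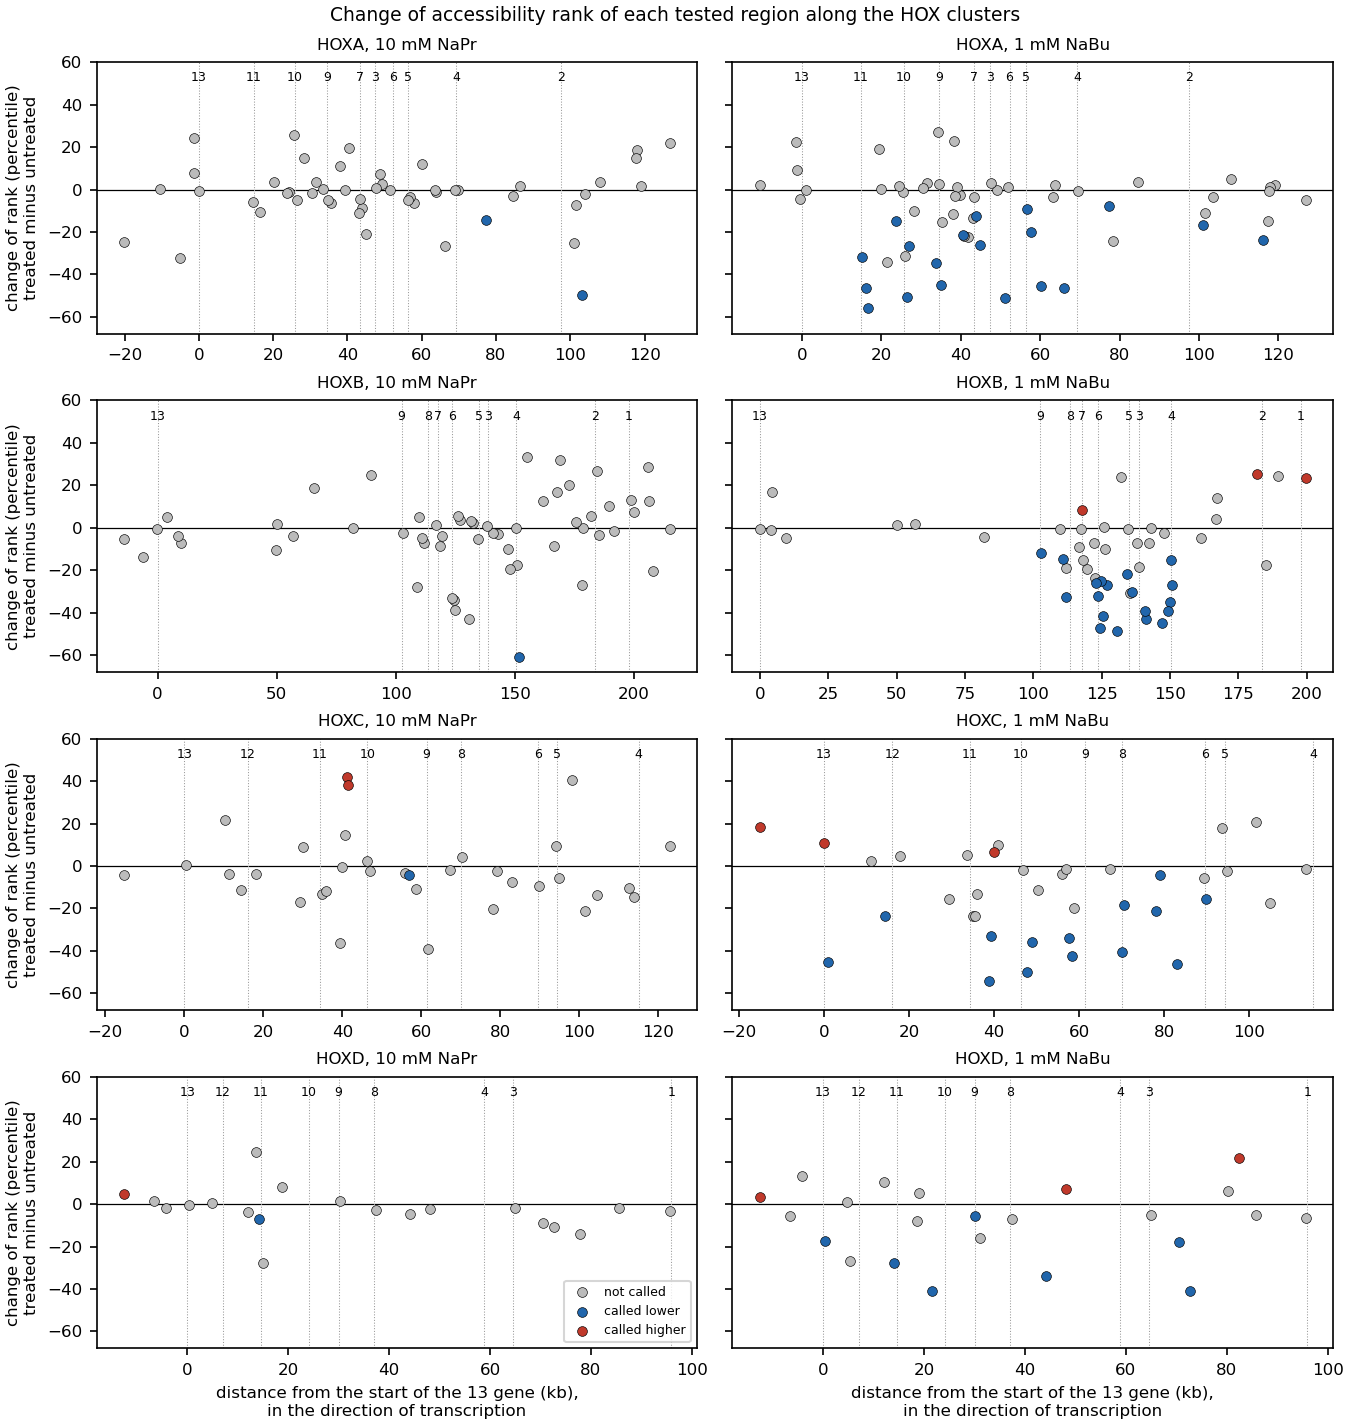
Change of percentile rank (treated minus untreated) of each tested region along the 4 HOX clusters, by distance in kb from the start of the gene numbered 13, for both experiments, with regions called lower in blue, those called higher in red and the starts of the genes shown as dotted lines. After NaBu the regions called lower crowd between HOXB4 and HOXB9 and between HOXA4 and HOXA11, while after NaPr 8 regions in all are called.

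Within the HOX regions the share that was lower was similar at gene starts and elsewhere. Of 42 HOX regions at a gene start after NaBu 15 (35.7%) were lower and 2 higher, and of 131 elsewhere 44 (33.6%) were lower and 7 higher. By annotation, 22 of 53 intronic regions, 16 of 39 regions in coding exons and 9 of 20 in untranslated regions were lower. In noncoding exons 8 of 33 were, and among intergenic regions 4 of 28. Of all tested regions 17.3% were lower, and of all tested protein-coding starts 25.3%. Shares over all regions of the same annotation were not computed, so the classes were not compared with the genome.

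At gene starts, 10 of the 28 tested HOX starts were lower after NaBu and 2 were higher, where 25.3% of all 14299 tested protein-coding starts were lower and 6.13% higher. By position in the cluster, paralogues 1 to 4 had 1 lower of 7 tested, paralogues 5 to 8 had 4 lower and 1 higher of 10, and paralogues 9 to 13 had 5 lower and 1 higher of 11. The share of HOX starts that was lower was above that of all starts, in a list of few genes.

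In HOXA 2 of 10 tested starts were lower after NaBu. HOXA11, which patterns the limb and the reproductive tract, had untreated ranks of 65.9, 61.4 and 51.8 and treated ranks of 29.1, 20.3 and 34.1. All 3 treated libraries lay below all untreated ones, a change of −31.9 ± 6.06 (SE) with an adjusted p of 0.00596. HOXA5, a regulator of lung and gut development, fell from 91.5, 92.3 and 91.4 to 84.5, 83.6 and 80.1, a change of −8.98 ± 1.25 (adjusted p = 0.00184). Its groups did not overlap either, although its start stayed among the more accessible ones. HOXA13, at the posterior end of the cluster, had 92.5, 93.2 and 93.3 untreated and 93.1, 86.8 and 86.0 treated. These values overlapped and the start was not called (adjusted p = 0.0892). HOXA3, HOXA4, HOXA6, HOXA7, HOXA9 and HOXA10 were tested and not called, with changes from −3.66 to 3.32.

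In HOXB 3 of 7 tested starts were lower and 1 was higher after NaBu. HOXB6, a gene of the middle of the cluster, had 68.5, 75.7 and 69.2 untreated and 31.9, 53.6 and 31.2 treated, a change of −32.3 ± 6.63 (adjusted p = 0.00797). HOXB9 went from 93.2, 90.2 and 91.5 to 84.9, 75.3 and 79.3, a change of −11.8 ± 2.28 (adjusted p = 0.00627), and HOXB4, known for its part in blood stem cells, from 72.6, 60.7 and 67.6 to 49.8, 49.0 and 56.7, a change of −15.1 ± 4.43 (adjusted p = 0.0308). For these 3 genes every treated library was below every untreated one. The HOXB4 call was lost when untreated library 1 or 3, or treated library 1 or 2, was left out (adjusted p of 0.0973, 0.0824, 0.0746 and 0.0817). HOXB7, which has been studied as a growth regulator in several cancers, moved the other way, from 76.5, 70.8 and 69.7 to 77.4, 82.4 and 81.9, a change of 8.24 ± 2.43 (adjusted p = 0.0317). Its lowest treated value exceeded its highest untreated value by little, and the call was lost without untreated library 2 or 3 or treated library 2 or 3 (adjusted p from 0.0936 to 0.106). HOXB13, which lies far from the rest of the cluster and is expressed in prostate and distal colon, had 75.8, 77.7 and 74.6 untreated and 76.9, 74.7 and 74.5 treated, overlapping values that were not called (adjusted p = 0.797). HOXB1, at the other end, had no tested region within 500 bp of its start after NaBu. HOXB3 and HOXB5 were tested and not called, HOXB3 with a change of −18.5 ± 6.27 at an adjusted p of 0.0519.

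In HOXC 2 of 5 tested starts were lower and 1 was higher after NaBu. HOXC8, which patterns the trunk, had 40.2, 41.6 and 40.3 untreated and no peak in any treated library, a change of −40.7 ± 5.33 (adjusted p = 0.00149). The next region (chr12:54009247-54009686), also within 500 bp of the start, kept a peak in every treated library, with a change of −18.6. It is the region used for HOXC8 on the tag scale below. HOXC6 went from 76.4, 74.3 and 78.2 to 61.6, 58.3 and 62.3, a change of −15.6 ± 2.56 (adjusted p = 0.00347), with no overlap between the groups. HOXC13, which controls hair and nail keratins, went up from 70.2, 70.02 and 67.9 to 76.3, 84.6 and 79.2, a change of 10.6 ± 2.47 (adjusted p = 0.0126). The start of this gene at the posterior end of HOXC was thus higher, while the next region in its coding exon was lower, from 60.1, 55.4 and 45.5 to 25.8, 0 and 0. HOXC4, the gene at the other end, had no tested region within 500 bp of its start. HOXC5 and HOXC10 were tested and not called.

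In HOXD 3 of 6 tested starts were lower after NaBu and 0 higher. HOXD11, a limb and kidney patterning gene, had 77.7, 78.3 and 76.3 untreated and 54.7, 47.2 and 47.0 treated, a change of −27.8 ± 3.37 (adjusted p = 0.00114). HOXD13, which patterns the digits and the hindgut, had 73.1, 71.1 and 68.5 untreated and 51.5, 49.2 and 59.4 treated, a change of −17.5 ± 3.81 (adjusted p = 0.00989). HOXD9 went from 93.6, 91.1 and 89.4 to 87.7, 83.6 and 86.3, a change of −5.48 ± 1.41 (adjusted p = 0.0187). In all 3 the groups did not overlap, and the HOXD9 call was lost without untreated library 1 or 2 or treated library 2 or 3 (adjusted p from 0.0573 to 0.0686). HOXD1, the anterior end of the cluster, had 81.5, 82.2 and 74.2 untreated and 75.5, 66.6 and 76.9 treated, overlapping values that were not called (adjusted p = 0.166). HOXD3 and HOXD8 were tested and not called.

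The largest changes after NaBu were in regions away from starts. A region in the HOXA11 intron (chr7:27183133-27183704), whose summit sequence is given above, had ranks of 55.1, 51.1 and 61.7 in untreated libraries and no peak in any treated library, a change of −55.9 ± 5.46 (adjusted p = 0.000593). Its untreated summits held 154, 100 and 135 tags. The other 5 of the 6 largest falls were a region in the untranslated part of HOXC11 (chr12:53977530-53977813) at −54.4, one in an intron near HOXA6 (chr7:27148699-27149172) at −51.1, one in a HOXA10 coding exon (chr7:27173562-27173728) at −50.8, one in HOXC10 (chr12:53986531-53986689) at −50.0 and one in HOXB6 (chr17:48597737-48598400) at −48.5. In each of these 6 regions at least 2 of 3 treated libraries had no peak, and all untreated libraries had one. The HOXA11 intron, HOXA10 and HOXB6 regions had a peak in 0 of 3 treated libraries. Neighbouring regions near HOXA6 (chr7:27147855-27148596) and HOXC10 (chr12:53984881-53986419) kept a peak in all 6 libraries. With regions merged over 12 libraries the value near HOXA6 changed direction, as given in the last section.

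Regions that rose after NaBu were fewer and smaller in change. The HOXB-AS1 region (chr17:48546560-48547197), an exon of an antisense RNA near HOXB2, went from 24.0, 24.1 and 45.4 to 54.0, 57.1 and 58.1, a change of 25.2 ± 6.82 (adjusted p = 0.0229). The call was lost when any library but untreated 3 was left out (adjusted p from 0.0559 to 0.0769). A region in the HOXB1 coding exon (chr17:48528535-48529894) had no peak in untreated libraries and ranks of 22.003, 29.9 and 18.1 after NaBu (change 23.3 ± 6.32), and a HAGLR exon (chr2:176174961-176175211) had none in untreated libraries and 24.5, 22.9 and 18.5 after NaBu (change 21.96 ± 5.98). These treated ranks are low, so the new peaks were among the weaker of each library. An intergenic region before HOXC13 (chr12:53923389-53924022) went from 34.8, 52.2 and 39.1 to 62.7, 57.8 and 60.6 (change 18.4 ± 5.53, adjusted p = 0.0341), and its call was lost when any library but untreated 2 was left out (adjusted p from 0.0691 to 0.0948).

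Ranks do not show how much signal was lost, so the tags under each summit were recovered from the fold enrichment and the −log10 p. They were expressed as log2 of tags over the library's genome background, with the same constant added to both. The constant leaves depth only partly corrected, the more so where the background is low, as in some NaPr libraries. Such values were made for the regions with a peak in all 6 libraries, so regions that lost their peak are not among them. After NaBu 72 of 109 such HOX regions were lower and 3 higher, that is 66.1% and 2.75%, where 27.9% of all such regions were lower and 22.5% higher. The median log2 change was −0.43 in HOX regions, a fold of 0.741, and −0.03 in all regions. HOXA had 30 lower of 41, HOXB 23 of 31, HOXC 12 of 21 and HOXD 7 of 16. With each library centred on its median in place of the background, 71 HOX regions were lower and 5 higher, against 28% and 25.1% of all regions.

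On this scale most HOX starts fell. Of the 28 starts with such a region 23 were lower and 1 higher after NaBu, where 56% of all protein-coding starts were lower and 2.97% higher, and the median log2 change was −0.49. HOXB6 fell by 1.24 ± 0.14 (SE) on the log2 scale, from 5.52, 5.66 and 5.46 to 4.15, 4.63 and 4.12. HOXD11, HOXB9 and HOXA11 fell by 1.11, 1.10 and 1.08. The summit at HOXB9 held 360, 194 and 242 tags in untreated and 137, 100 and 114 in treated libraries, without overlap. HOXC13 was higher on this scale too, at 0.44 ± 0.15 (adjusted p = 0.0170), whereas HOXB7, higher by rank, was at −0.02 ± 0.13 by tags and was not called (adjusted p = 0.914). HOXA13 and HOXD1, not called by rank, were lower by tags, at −0.51 and −0.47 (adjusted p = 0.00143 and 0.0166).

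**Figure D4:**
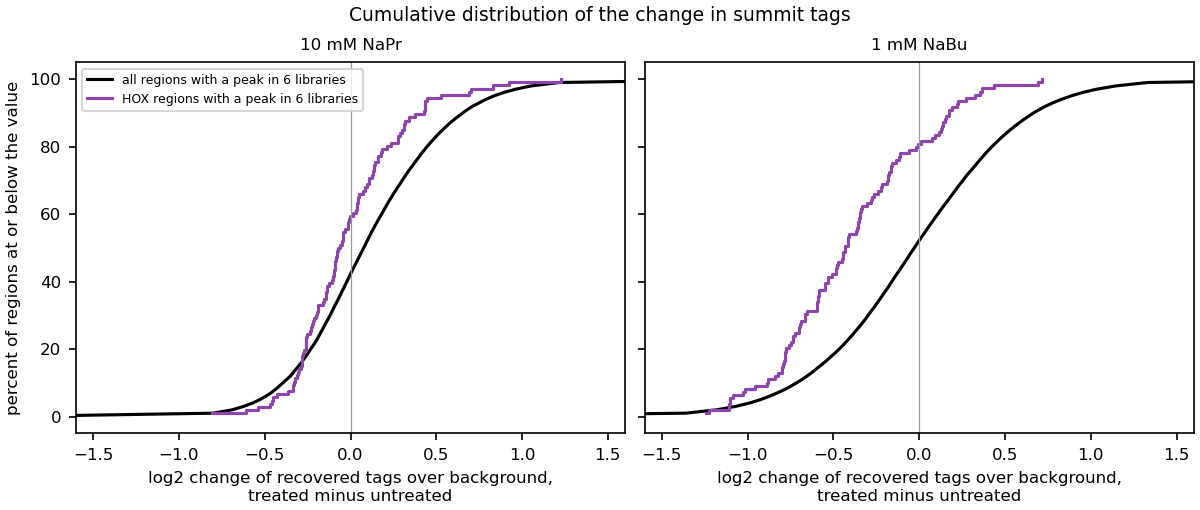
Cumulative percent of regions by log2 change of recovered tags over background (treated minus untreated), for HOX regions and all regions with a peak in all 6 libraries, 10 mM NaPr on the left and 1 mM NaBu on the right. After NaBu the HOX curve lies to the left of that of all regions, with medians of −0.43 and −0.03, and after NaPr the medians are −0.07 and 0.08.

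The bases covered by peaks gave a value per library for each cluster. In the NaBu experiment peaks covered 83.9, 78.9 and 78.0 kb of the 4 spans in untreated libraries and 70.8, 68.7 and 70.4 kb in treated ones. Every treated library was below every untreated one, a difference of −10.3 kb with a two-sided exact permutation p of 0.1, the smallest that 3 against 3 libraries can give. Over the same libraries the bases covered in the whole genome rose from 64.0 ± 1.61 to 67.6 ± 0.26 Mb (SD, n = 3), so the HOX share of all covered bases went from 0.125% to 0.103%. The direction was the same in each cluster, without overlap, at −2.22 kb in HOXA, −1.95 kb in HOXB, −3.20 kb in HOXC and −2.91 kb in HOXD. The number of peak intervals did not overlap between the groups either, with 183, 192 and 196 in untreated and 159, 160 and 166 in treated libraries.

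**Figure D5:**
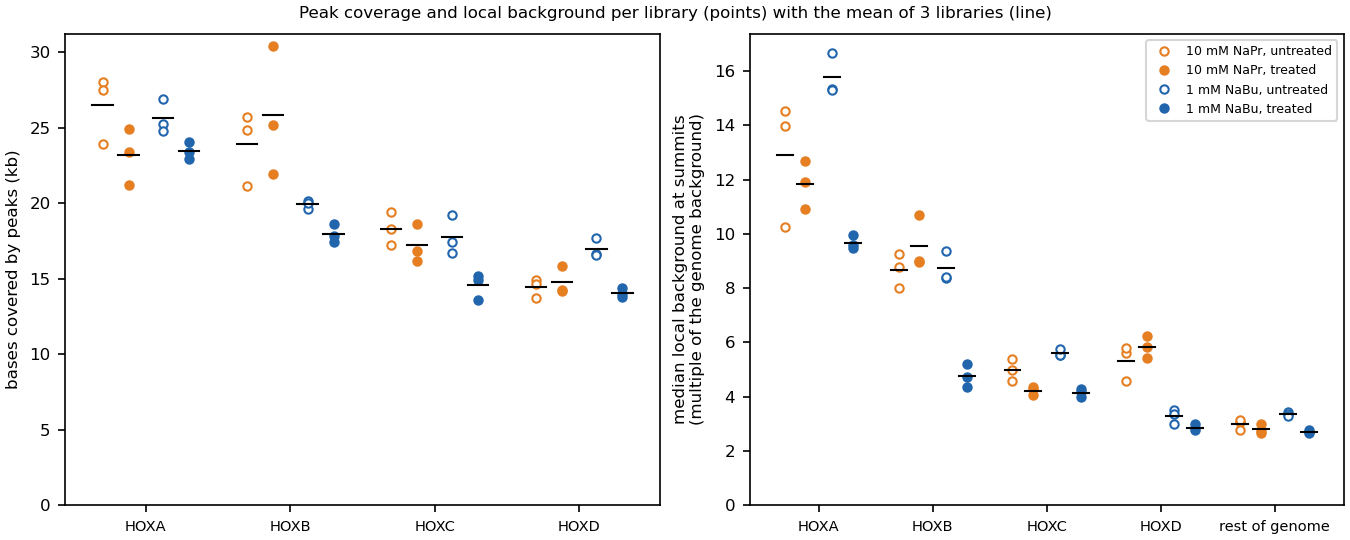
Bases covered by peaks in kb in each HOX cluster, 1 point per library, and on the right the median local background at summits, as a multiple of the genome background, in each cluster and in the rest of the genome, with open points for untreated libraries, filled points for treated ones and a line at each mean of 3. In the NaBu experiment the treated libraries lie below the untreated ones for every cluster in covered bases, with 68.7 to 70.8 kb against 78.0 to 83.9 kb over the 4 clusters.

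Local background is the tag density around a summit that the peak caller uses in its test. In the untreated NaBu libraries it was above that of the rest of the genome in HOXA, HOXB and HOXC. In the untreated NaPr libraries it was above it in HOXD as well, at a mean of 5.33 against 2.99. The median local background over HOX summits was 7.85, 7.12 and 6.99 times the genome background in the untreated NaBu libraries and 4.85, 4.80 and 4.67 times in the treated ones. The groups did not overlap (exact permutation p = 0.1), a ratio of 0.652. Over summits in the rest of the genome the means were 3.36 ± 0.0642 and 2.72 ± 0.0531 (SD, n = 3), a ratio of 0.809. The cluster with the highest local background was HOXA, with a mean of 15.8 untreated and 9.68 treated. HOXB went from 8.73 to 4.76, HOXC from 5.60 to 4.14 and HOXD from 3.29 to 2.86. In HOXD the untreated mean was thus no higher than in the rest of the genome, and its ratio of 0.868 was a smaller fall, while HOXA, HOXB and HOXC fell to ratios of 0.613, 0.546 and 0.740. The part of local background in the rank changes was not tested. In these bulk libraries fewer cells with an open region and a less open region in each cell cannot be told apart.

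After NaPr few HOX regions were called by rank. Of 163 regions 3 were called higher and 5 lower, 1.84% and 3.07%, where 4.45% of all tested regions were higher and 3.9% lower. The median change was −1.89 against 0.04 over all regions, and 40 HOX regions (24.5%) had an unadjusted p under 0.05, where 25.2% of all regions did. Counts by cluster were 0 higher and 2 lower of 51 in HOXA, 0 and 1 of 57 in HOXB, 2 and 1 of 35 in HOXC and 1 and 1 of 20 in HOXD. In 4 HOX regions each treated library, and no untreated one, had a peak (3.04% of all regions) and the reverse was found in 0 (1.6% of all regions). These shares were close to those of the genome. When treated library 1, 2 or 3 was left out, 0 regions were called in the whole genome, and without untreated library 1, 2 or 3 the HOX calls were 0 higher with 1, 0 and 0 lower. The rank calls of the 8 HOX regions named below were thus lost when any library was left out, except that of the HOXB4 exon region, which was kept without untreated library 1 (adjusted p = 0.0457). Calls on the tag scale were not tried without a library.

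The regions higher after NaPr included a neighbouring pair between HOXC11 and HOXC10, both genes of the posterior part of HOXC. The first (chr12:53979847-53980025) had no peak in untreated libraries and ranks of 28.8, 50.9 and 45.6 in treated ones, a change of 41.8 ± 10.9 (adjusted p = 0.0464), with 13, 23 and 32 tags at its summits. The next (chr12:53980080-53980399) had none in untreated and 41.1, 36.4 and 37.0 in treated libraries (change 38.2 ± 10.1, adjusted p = 0.0481). The first of them overlapped a region of the NaBu experiment that already had a mean rank of 52.0 in untreated cells and was not called there (change 10.0 ± 4.13, adjusted p = 0.0971). The third was a region in the coding exon of EVX2, the homeobox gene next to HOXD13 (chr2:176079369-176081059), with 91.2, 92.7 and 92.5 untreated and 98.1, 96.3 and 95.8 treated, a change of 4.55 ± 0.83 (adjusted p = 0.0155).

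The regions lower after NaPr were spread over the 4 clusters. The HOXB4 exon region (chr17:48576697-48577265) had 67.2, 71.0 and 71.6 in untreated libraries and 27.6, 0 and 0 in treated ones, a change of −60.8 ± 10.4 (adjusted p = 0.0132). A region in HOTAIRM1, a long noncoding RNA gene of HOXA (chr7:27096787-27097146), had 61.6, 61.7 and 53.7 untreated and 0, 27.8 and 0 treated, a change of −49.7 ± 11.1 (adjusted p = 0.0291). In both, 2 of 3 treated libraries had no peak. The other 3 stayed strong, with a region in HOXA3 and its antisense gene HOXA-AS2 (chr7:27122112-27123633) going from 83.4, 83.4 and 85.4 to 64.0, 74.3 and 71.4, and one in HOXC9 and its antisense gene HOXC-AS2 (chr12:53995246-53996160) from 96.4, 96.4 and 96.2 to 90.9, 93.2 and 91.7. The last was the HOXD11 start, with 91.5, 92.3 and 93.2 untreated and 82.6, 86.7 and 87.4 treated, a change of −6.80 ± 1.36 (adjusted p = 0.0209).

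Of 31 tested HOX starts HOXD11 alone was called after NaPr, where 8.8% of all 14629 tested protein-coding starts were lower and 0.93% higher. The genes at the ends of the clusters described here were not called. HOXA13 had 99.3, 99.2 and 99.4 untreated and 98.3, 98.4 and 98.6 treated (adjusted p = 0.268). Its groups did not overlap, at a difference of −0.85 ± 0.47 rank units. HOXB1 had 43.4, 53.2 and 32.2 untreated and 56.9, 47.2 and 63.7 treated, and HOXB13 had 78.8, 81.5 and 75.6 untreated and 76.7, 81.6 and 76.0 treated, overlapping in both. HOXC13 had 81.3, 86.6 and 86.4 untreated and 85.0, 86.0 and 85.0 treated. HOXD1 had 94.4, 91.3 and 92.7 untreated and 92.1, 87.4 and 89.2 treated, and HOXD13 had 81.6, 84.3 and 86.9 untreated and 86.6, 81.3 and 84.3 treated. All of these overlapped, and HOXC4 had no tested region. HOXC9 and HOXB6 had the largest changes among starts that were not called, −39.0 ± 12.1 (adjusted p = 0.0742) and −32.9 ± 11.4 (adjusted p = 0.101).

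By tags over background, 3 of 106 HOX regions were higher after NaPr and 0 lower, where 4.6% of all regions were higher and 0.72% lower, and of 29 HOX starts 0 were called, where 0.348% of all starts were higher and 0.457% lower. The 3 were none of the regions called by rank. The clearest was a region in HOXB3 (chr17:48560560-48561644), with 3.22, 3.38 and 3.73 untreated and 4.22, 4.60 and 5.19 treated, at 1.23 ± 0.29 (adjusted p = 0.00207). Its summits held 17, 34 and 39 tags untreated and 35, 54 and 100 treated. Its local background was 5.43, 6.16 and 7.03 times the genome background untreated and 14.7, 12.6 and 19.2 times treated. The region beside it (chr17:48559700-48560408) had no peak in untreated libraries and 34, 36 and 71 tags in treated ones. Neither was called by rank, and both were chosen after their values were seen. The split between directions depended on the scaling. With each library centred on its median 7 HOX regions were higher and 30 lower, against 12.2% and 19.9% of all regions, and in the genome the share of calls that were higher went from 53.3% by rank and 86.5% by tags over background to 38.0% when centred. The balance of higher and lower NaPr calls in the HOX clusters therefore differed between the 3 scales. The median change over HOX regions was below that of all regions on each scale. It was −1.89 against 0.04 by rank, −0.07 against 0.08 by tags over background and −0.19 against −0.05 when centred. In HOXB these medians were −0.78, 0.18 and 0.05. Whether the medians differed from those of all regions was not tested. Covered bases did not separate the groups either, with 75.9, 86.0 and 87.3 kb untreated and 73.4, 79.6 and 89.7 kb treated (exact permutation p = 0.8). Without treated library 1 the difference of −2.15 kb became 1.59 kb. Local background at HOX summits was 7.30 ± 0.805 untreated and 6.96 ± 0.25 treated (SD, n = 3), also overlapping.

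In 3 places a region was called in the same direction in both experiments. The EVX2 exon region was higher, by 4.55 after NaPr and by 3.4997 ± 1.06 after NaBu (adjusted p = 0.0345). The HOXD11 start and the HOXA3 and HOXA-AS2 region were lower, the latter by −14.2 ± 2.80 after NaPr and −7.97 ± 1.58 after NaBu. Of the 59 regions lower after NaBu, 44 overlapped a NaPr region that was not called and 13 overlapped no tested NaPr region. Of all 129351 tested NaPr regions 118542 were not called either. How often calls were shared by both experiments over all regions was not computed. No HOX region was called in opposite directions.

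The 8 miRNA genes in the clusters belong to families that target HOX transcripts, among them the MIR10 and MIR196 families, or lie beside HOX genes. MIR196B, MIR3185, MIR615 and MIR7704 overlapped a tested region in each experiment and none was called. MIR196B, near HOXA9, changed by −1.47 after NaPr and 0.58 after NaBu, and the largest change was that of MIR3185, 16.8 after NaBu (adjusted p = 0.157). MIR10A, MIR10B, MIR196A1 and MIR196A2 overlapped no tested region.

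Genes that work with or regulate HOX genes were followed at their own starts, from a list of 38 that held the PBX, MEIS and PKNOX cofactors, the CDX and EVX homeobox genes, Polycomb and Trithorax subunits, CTCF and retinoic acid receptors. After NaBu 11 of 33 tested starts were lower and 4 higher, and after NaPr 2 of 34 were lower and 0 higher. These shares stand against 25.3% and 6.13% of all starts after NaBu and 8.8% and 0.93% after NaPr. CBX2, a Polycomb subunit that binds histone marks, had a mean rank of 62.4 in untreated cells and no peak in any NaBu library (change −62.4 ± 5.06, adjusted p = 0.000416). CDX2, the intestinal homeobox factor that acts upstream of HOX genes, had no peak at its start in untreated NaBu libraries and a mean of 57.3 after NaBu (change 57.3 ± 5.44, adjusted p = 0.000555), although in the untreated NaPr libraries it had a mean of 80.3. These levels come from different merged intervals and were not compared. BMI1, another Polycomb subunit, fell in both experiments, by 45.8 after NaPr (adjusted p = 0.0367) and by 35.6 after NaBu (adjusted p = 0.00461). PBX2 fell by 45.7 and RING1 by 33.2 after NaBu (adjusted p = 0.00368 and 0.0295).

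HOX regions differed in sequence from accessible regions in general. Their median GC content was 59.4% against 50.3% for all regions of the NaBu experiment, and their median ratio of observed to expected CpG was 0.601 against 0.235. In the NaPr experiment the values were 59.96% against 52.7% and 0.571 against 0.225. The HOX regions lower after NaBu had a median ratio of 0.633, those higher 0.561 and those not called 0.562. After NaPr the ratio was 0.739 in the 5 lower HOX regions and 0.175 in the 3 higher ones. Over all regions it was 0.289 in lower and 0.202 in higher ones after NaBu, and 0.350 and 0.181 after NaPr. The HOX values are descriptions over regions of the same clusters, which share their base composition.

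Motifs were searched on both strands in 200 bp around the summit. The AP-1 site TGANTCA was found in 2.89% of HOX regions and 19.8% of all regions of the NaBu experiment, and in 4.91% and 18.4% in the NaPr experiment. The HOX-PBX motif TGATTNAT was found in 2.31% and 3.56% of regions of the NaBu experiment, and the CTCF core CCANNAGNNGGC in 4.05% and 6.77%. The retinoic acid response element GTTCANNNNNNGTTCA was found in 0 HOX regions of the NaBu experiment and 1 of the NaPr experiment. None of the 20 regions named by the rule held any of these letters, and 4 of the 76 called HOX regions did. Of those, 2 sites are printed with the motif in capitals, chosen after their values were seen, on the plus strand of GRCh38.
HOX-PBX in HOTAIRM1, lower after NaBu (chr7:27099071-27099100): tagaaagcgttTGATTTATgagcgtaggac
CTCF in the HOXD3 intron, higher after NaBu (chr2:176140636-176140665): gcgcctcgtCCAGGAGGAGGCgctgtagga
The CTCF region had 73.7, 71.8 and 76.0 untreated and 77.2, 82.7 and 82.7 treated, without overlap. Among RefSeq promoter windows, from 250 bases before to 50 after a start, 27 windows of 20 HOX genes were found among 35116. HOX-PBX letters were in 2 of them, HOXD11 and HOXA2, and in 2.82% of all windows, CTCF letters were in 1 and in 2.41% of all, and AP-1 letters were in 0 and in 7.71% of all. The median number of CpG was 22 in HOX windows and 14 in all windows.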

How the data were processed

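ATAC-seq peak lists of 12 SW480 libraries were used. The authors trimmed reads with cutadapt (1.9.1), aligned them to hg38 with Bowtie2 (2.3.1) and called peaks with MACS2 (2.1.0), per the submitters' processing notes. The deposited lists give, per summit, a fold enrichment ratio over background and a −log10 p and −log10 q-value from the authors' peak caller, and their numbering ends at 300000. The lists were deposited per library and hold no reads, so the read-based test of the study could not be run. Mouse CT26 lists were not used. Overlapping intervals (1 bp or more) of 6 libraries were merged, those found in 2 or more libraries were ranked within each library by −log10 p, and ranks were tested with limma (3.58.1, R 4.3.3, trended variance, two-sided, Benjamini-Hochberg over all tested regions, threshold 0.05). Annotation was GENCODE 44 on GRCh38. Covered bases and local background were compared with exact permutation tests. Tags were recovered by solving fold and −log10 p together, which gave a solution for 100% of summits in each library. A solution alone does not show that the recovered tags are right. The recovery was tried on simulated summits with backgrounds below the local background of many HOX summits. The depth in reads is unknown. The model was tested on simulated data. The members, lists and named regions were chosen with earlier results of these data known. Named regions are, in each experiment and direction, up to 6 called regions with the largest change and no overlap between groups, gene starts that were called and the end genes of each cluster, and up to 6 of the called cofactor or regulator genes. Alternatives were other rankings, filters, overlaps, windows, scales, variance models and leaving out each library. Results for 1 HOX gene and 1 marker gene are not reported here.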

Additional observations from a re-analysis of the deposited data

How the results depend on the processing

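After NaBu the HOX regions called lower, 59 in the comparison above, numbered 28 when ranked by fold enrichment and 17 among the 50000 strongest intervals per library, shares of 16.2% and 20.7% where 13.8% and 20.8% of all regions were lower, so the difference from the genome was small or absent there. HOX regions called higher, 9 above, numbered 5 among the strongest intervals, 16 with summit windows, 5 without an intensity trend, 3 by tags over background and 5 by centred tags. HOX starts lower after NaBu numbered 6 by fold enrichment and 23 on both tag scales, and starts higher 1 on both tag scales and without a trend. The median change over HOX regions was −5.71 by fold enrichment, −5.75 among the strongest intervals, −9.33 with no filter, −6.63 with summit windows and −6.49 with regions merged over 12 libraries. Medians on the tag scales are in another unit and were not set beside these.

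After NaPr the lower regions, 5 above, numbered 0 by tags over background, 30 by centred tags, 3 without a trend, 3 with no filter, 8 with a peak in 3 libraries, 2 by fold enrichment, 8 with summit windows and 9 among the strongest intervals, and the higher ones, 3 above, numbered 7 by centred tags, 1 with no filter and 0 by fold enrichment. HOX starts lower numbered 11 by centred tags, 0 by tags over background and without a trend, 2 with a peak in 3 libraries and 3 among the strongest intervals, and 1 start was higher by centred tags. The median change was −0.93 with no filter, −3.68 by fold enrichment and −4.49 among the strongest intervals.

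Replicate numbers are shared between the groups, but libraries of the same number did not deviate together, with correlations of 0.0114, 0.0113 and 0.0436 for NaPr and 0.0232, 0.00693 and 0.0132 for NaBu. Untreated library 2 of the NaPr experiment correlated more with treated library 1, at 0.0180. With a replicate block 0 HOX regions were higher and 0 lower after NaPr, with 0 starts lower, and after NaBu 5 were higher and 58 lower, with 1 start higher and 11 lower.

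Leaving out a library gave 49 to 55 lower and 5 to 11 higher regions after NaBu, 8 to 11 lower and 1 to 2 higher starts and a median change from −10.8 to −7.38. After NaPr it gave 0 to 1 lower and 0 to 0 higher regions, 0 to 0 lower starts and a change of covered bases from −6.54 to 1.59 kb. For covered bases of HOXB after NaPr it gave −0.353 to 3.88 kb, the lowest without treated library 3, and for HOXD −0.215 to 0.612 kb, with negative values without treated library 3 and, at −0.0248 kb, without untreated library 1, where all libraries gave 1.92 and 0.326 kb.

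Single values that changed direction were those of the HOXB7 start, −0.0194 by tags over background, the HOXA11 start, 9.69 with summit windows, the region near HOXA6, 1.43 with regions merged over 12 libraries, and covered bases after NaPr of HOXB, −0.766 kb among the strongest intervals, and of HOXD, −0.140 kb with summit windows. With summit windows and regions merged over 12 libraries the values belong to other intervals. Otherwise the cause was not tested. The lists end at a fixed number of summits, so weak accessibility below it is not seen.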
